A study of Sus scrofa with 6 samples.

Results

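The BCL2 family decides whether a cell keeps its mitochondria intact or opens their outer membrane and dies by apoptosis. Pro-survival members such as BCL2, BCL2L1 (BCL-xL), MCL1 and BCL2A1 hold the effectors BAX and BAK1 in check, and the BH3-only members BAD, BID, BCL2L11 (BIM) and BBC3 (PUMA) bind the pro-survival members or trigger the effectors. Once the membrane is opened, cytochrome c leaves the mitochondrion and caspases are switched on. In the artery wall, death of smooth muscle cells and macrophages by this route is a known feature of atherosclerotic plaques.

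The family was examined as 10 members among the 30477 genes of the abdominal aorta expression table. Of these 10, 4 were found by gene name (BCL2L1, MCL1, BCL2A1 and BAD) and 4 more by the description of entries that carry only an Ensembl identifier (BAK1, BID, BCL2L11 and BBC3). The other 2, BCL2 and BAX, had no entry of their own. The annotation of BCL2 stood in the entry named KDSR and that of BAX in the entry named DHDH, and the RefSeq order places each pair side by side with 0 protein-coding genes between them. Their values therefore cannot be told apart from those of KDSR, an enzyme of ceramide synthesis, and DHDH, a dehydrogenase, and the BCL2 and BAX levels themselves are not given.

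RNA-Seq compared male Wuzhishan miniature pigs fed normal chow (NC, 3 pigs) with pigs fed a diet high in fat, cholesterol and fructose (HFCF, 3 pigs), both for 6 months. The labels give an age of 3 to 4 months for both groups, and the methods give an older one. Each library was total RNA of abdominal aorta tissue, a mixture of cell types, so fewer cells of a type and less RNA per cell cannot be told apart. Levels are FPKM (fragments per kilobase of exon, scaled to the mapped reads of the library). Because they are divided by gene length, levels of different genes can be compared, but only roughly, since entries differ in their annotation. Differences are HFCF minus NC on the scale log2(FPKM + 0.1), which understates the change of genes at low levels, and a gene is called changed at an adjusted p under 0.05 (limma, two-sided, Benjamini-Hochberg over all tested genes). Because the smallest p that an exact two-sided permutation test allows here is 0.1, single genes were judged by limma, which borrows the spread between pigs from all genes.

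The tissue itself differed between the diets. Of the 12 macrophage markers, 12 were higher in the HFCF group, and their summed level was 48.6 to 60.3 FPKM in the NC libraries and 705 to 1825 FPKM in the HFCF libraries, highest in the first HFCF pig. Of the 8 contractile smooth muscle markers 6 were lower, with summed levels of 15914 to 22729 FPKM against 7997 to 12892 FPKM. Neutrophil markers, 3 of which were listed at 0 in every NC library, summed to 1.67 to 3.07 FPKM against 7.18 to 116 FPKM, with 2 of 6 tested genes higher. These were CSF3R and S100A9, while CXCR2, S100A8, S100A12 and ELANE overlapped between the groups. CSF3R alone measured 55.9, 8.38 and 4.55 FPKM in the HFCF pigs, where the neutrophil sums were 116, 14.1 and 7.18 FPKM. T cell markers summed to 2.07 to 2.61 against 4.00 to 19.8 FPKM (2 of 8 higher), and B and plasma cell markers to 6.91 to 11.4 against 35.9 to 54.0 FPKM (1 of 6 higher). Endothelial, fibroblast and adipocyte markers overlapped between the groups in their summed levels. The libraries summed to 272207 to 287141 FPKM in the NC group and to 330222 to 338690 FPKM in the HFCF group. The median difference of the 15384 tested genes was 0.32. Differences of the members with an entry of their own are therefore also given relative to that median. Those of the shared entries and of single pathway genes are not. The part of these shifts in the results below was not tested.

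All 8 members with an entry of their own passed the filter on low values, and 3 of the 8 rose in the HFCF group while 0 fell (limma; 5 higher and 0 lower at an unadjusted p under 0.05). Among all tested genes 28.9% were called, 22.8% higher and 6.16% lower. By role, 1 of 3 pro-survival genes (BCL2A1), 0 of 1 effector and 2 of 4 BH3-only genes (BAD and BBC3) rose. The values of the groups did not overlap in 5 of the 8 members, against 48.2% of all tested genes. The median difference of the 8 members was 0.73, or 0.41 relative to the median of all genes. The share of members called was 37.5%, near that of all tested genes for so few members, so the members are described one by one. BAD was the 1 member called under every one of the 15 alternative settings, and the number called was 1 without the second NC, the first HFCF or the second HFCF pig.

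**Figure D1:**
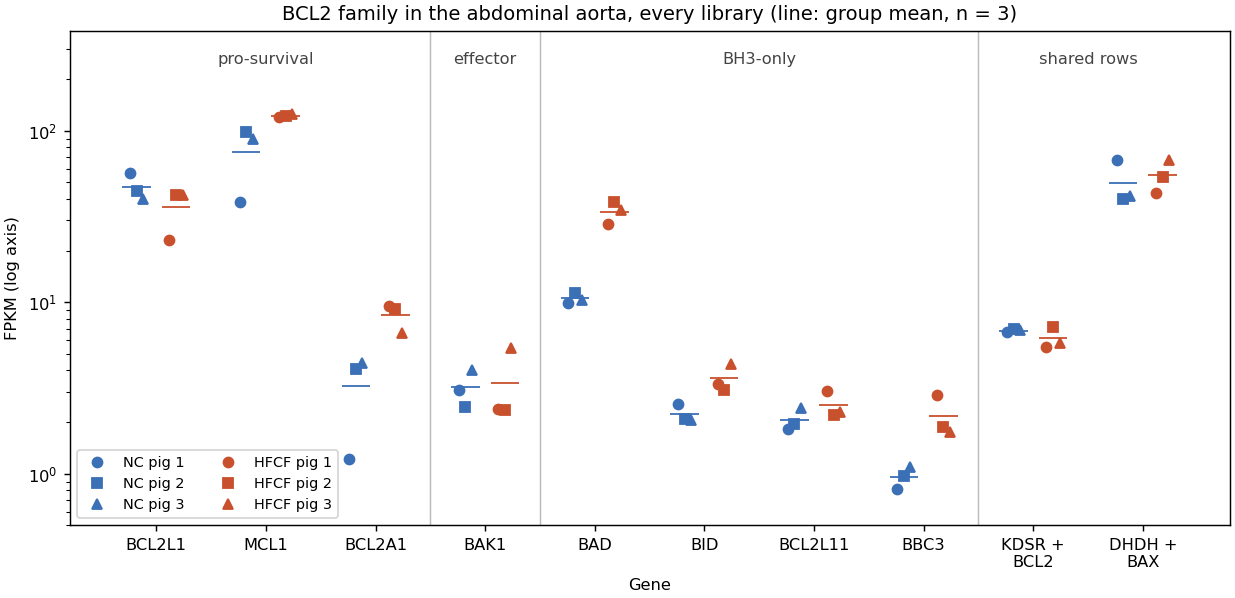
FPKM on a log axis of the 8 family members with their own entry and of the 2 shared entries, 1 point per library (3 NC pigs in blue, 3 HFCF pigs in red) with a line at the group mean. The 3 HFCF values of BAD (28.4 to 38.5) lie above the 3 NC values (9.92 to 11.3), while those of BAK1, BCL2L1 and BCL2L11 overlap.

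MCL1, a short-lived pro-survival protein, had the highest level of the 8 members in 5 of 6 libraries. It measured 38.4, 97.9 and 89.9 FPKM in the NC pigs and 120.0, 122 and 125 FPKM in the HFCF pigs. The HFCF values lay close together and above all NC values, but the first NC pig was far below the other NC pigs. The means were 75.4 ± 32.3 and 122 ± 2.49 FPKM (SD, n = 3 each), a difference of 0.81 with a 95% confidence interval of 0.0027 to 1.62 and an adjusted p of 0.117 (limma). Relative to the median of all genes the difference was 0.49. Without the first NC pig it was 0.38.

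BCL2L1, which encodes BCL-xL, the main partner of BAD, was the other abundant pro-survival gene. It measured 56.5, 44.3 and 40.2 FPKM in the NC pigs and 23.2, 42.0 and 42.4 FPKM in the HFCF pigs. The groups overlapped, and the first HFCF pig was the lowest of the 6 libraries. The means were 47.0 ± 8.47 and 35.8 ± 10.99 FPKM (SD, n = 3 each), a difference of -0.43 (95% confidence interval -1.06 to 0.20, adjusted p = 0.267, limma). It was negative under each of the 15 alternatives, between -0.78 and -0.14, and past the threshold under 0 of them. The value nearest to 0 was that without the first HFCF pig. Relative to the median of all genes the difference was -0.75.

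BCL2A1, an inducible pro-survival gene best known from blood cells, was the low member of this group and the 1 that rose. It measured 1.21, 4.06 and 4.41 FPKM in the NC pigs and 9.45, 9.10 and 6.62 FPKM in the HFCF pigs. All HFCF values were above all NC values, and the first NC pig was again the lowest. The means were 3.23 ± 1.75 and 8.39 ± 1.54 FPKM (SD, n = 3 each), a ratio of 2.60 and a difference of 1.53 ± 0.47 (SE), with an adjusted p of 0.0492 (limma). Relative to the median of all genes the difference was 1.21. The call lay just inside the threshold. The adjusted p was 0.0420 to 0.116 over the 15 alternatives and under 0.05 in 4 of them. It was 0.0633 without the second NC pig and 0.114, 0.116 and 0.0709 without the first, the second and the third HFCF pig (limma). Without the first NC pig the difference was 0.95, with an adjusted p of 0.0428 (limma). The summed levels of the macrophage and of the neutrophil markers were higher in each of the 3 HFCF libraries than in any NC library, with 12 of 12 macrophage and 2 of 6 tested neutrophil markers called, and the part of those cells in the BCL2A1 level was not tested.

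BAK1, the effector that sits in the outer mitochondrial membrane, did not separate the diets. It measured 3.09, 2.44 and 4.05 FPKM in the NC pigs and 2.40, 2.34 and 5.40 FPKM in the HFCF pigs. The third pig of each group was the highest and the ranges overlapped. The difference was -0.0024 (95% confidence interval -0.87 to 0.87, adjusted p = 0.996, limma), and its sign turned in 4 of the 15 alternatives. An interval of this width leaves changes of up to 0.87 in either direction undetected. Relative to the median of all genes the difference was -0.32.

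BAD, a BH3-only protein that is kept inactive by phosphorylation and 14-3-3 binding and otherwise occupies BCL-xL, had the clearest difference in the family. It measured 9.92, 11.3 and 10.3 FPKM in the NC pigs and 28.4, 38.5 and 34.4 FPKM in the HFCF pigs. All HFCF values stood well above all NC values, with little spread among the NC pigs. The means were 10.5 ± 0.75 and 33.8 ± 5.04 FPKM (SD, n = 3 each), a ratio of 3.21 and a difference of 1.67 ± 0.16 (SE; 95% confidence interval 1.29 to 2.04), with an adjusted p of 0.00122 (limma). Relative to the median of all genes it was 1.34, and 91.3% of all tested genes had a smaller difference. It rose in each of the 15 alternatives, by 1.31 to 1.78, with an adjusted p of 0.00109 to 0.0104 (limma). Without the first HFCF pig the difference was 1.78. The part of macrophages in the BAD level was not tested.

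BBC3, which encodes the BH3-only protein PUMA, also rose, from a level below that of every other member. It measured 0.82, 0.97 and 1.10 FPKM in the NC pigs and 2.88, 1.86 and 1.75 FPKM in the HFCF pigs. All HFCF values were above the NC values, with the first HFCF pig the highest. The means were 0.96 ± 0.14 and 2.16 ± 0.62 FPKM (SD, n = 3 each), a ratio of 2.25 and a difference of 1.07 ± 0.28 (SE), with an adjusted p of 0.0285 (limma). Relative to the median of all genes it was 0.74. The call held in 6 of 15 alternatives, with an adjusted p of 0.0258 to 0.231 over them. The adjusted p was 0.0910 without the first NC pig, 0.0738 without the second, 0.0607 without the first HFCF pig and 0.0591 without the second (limma).

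BID, which caspase-8 cleaves to carry a death receptor signal to the mitochondrion, did not pass the threshold. It measured 2.55, 2.10 and 2.05 FPKM in the NC pigs and 3.33, 3.08 and 4.37 FPKM in the HFCF pigs. The groups did not overlap. The difference was 0.66 (95% confidence interval 0.14 to 1.17) with an adjusted p of 0.0610 (limma), or 0.33 relative to the median of all genes, and 0 of 15 alternatives took it past the threshold. BCL2L11, which encodes BIM, measured 1.82, 1.96 and 2.43 FPKM in the NC pigs and 3.05, 2.21 and 2.28 FPKM in the HFCF pigs. These ranges overlapped. The difference was 0.26 (95% confidence interval -0.28 to 0.81, adjusted p = 0.421, limma), or -0.057 relative to the median of all genes. It turned to -0.078 with median-ratio scaling and to -0.31 with quantile normalization.

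Neither shared entry passed the test. The entry that holds KDSR and BCL2 measured 6.69, 6.96 and 6.86 FPKM in the NC pigs and 5.48, 7.19 and 5.76 FPKM in the HFCF pigs, a difference of -0.16 with an adjusted p of 0.50 (limma). The entry that holds DHDH and BAX measured 67.3, 39.8 and 41.4 FPKM in the NC pigs and 43.4, 53.6 and 67.4 FPKM in the HFCF pigs, a difference of 0.17 with an adjusted p of 0.655 (limma), which turned to -0.19 with median-ratio scaling and -0.094 after rescaling to TPM. Both ranges overlapped. Opposite changes of the genes within an entry would not show in its sum.

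**Figure D2:**
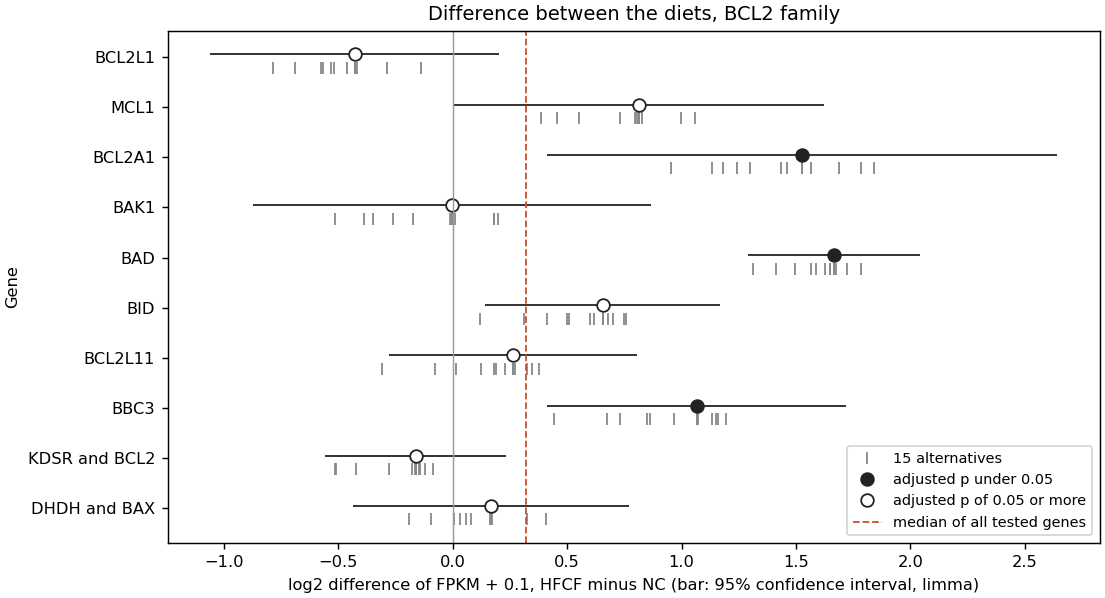
Difference in log2(FPKM + 0.1), HFCF minus NC, for the 8 members and the 2 shared entries, as a point (filled where the adjusted p is under 0.05) with its 95% confidence interval from limma, above grey ticks for the 15 alternatives. BAD, BCL2A1 and BBC3 are filled, the ticks of BAD lie between 1.31 and 1.78, and the dashed line marks the median of all tested genes at 0.32.

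The make-up of the family was described within each library, because shares and ratios of genes in 1 library do not depend on how libraries are scaled to each other. No test was run on these sums, which were defined with the values known. The 8 members summed to 114, 165 and 154 FPKM in the NC pigs and to 193, 221 and 222 FPKM in the HFCF pigs. Unlike the shares, this sum does depend on scaling. All genes together also summed to more in the HFCF libraries (330222 to 338690 FPKM) than in the NC libraries (272207 to 287141 FPKM). The pro-death members took 15.9%, 11.4% and 12.9% of the family sum in the NC libraries and 20.8%, 21.6% and 21.7% in the HFCF libraries. The HFCF shares lay close together and above every NC share, at 21.4% ± 0.50 against 13.4% ± 2.31 (SD, n = 3 each). This separation depends on leaving out BAX and BCL2. With the 2 shared entries counted in full, the DHDH and BAX entry on the pro-death side, the pro-death share was 45.4%, 27.7% and 30.2% in the NC libraries and 34.6%, 36.0% and 39.1% in the HFCF libraries, which overlap. How much of that entry is BAX is not known.

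BAD accounted for the difference in the pro-death share. BAD alone took 7.40% ± 1.12 of the family sum in the NC group and 15.9% ± 1.35 in the HFCF group. The pro-death members other than BAD took 6.0% ± 1.38 and 5.51% ± 1.06 of the same sum (SD, n = 3 each), with overlapping ranges. With the 2 shared entries in the sum, the BAD share was 5.23% ± 0.15 and 12.3% ± 1.11, still without overlap. Among the BH3-only genes the share of BAD was 66.6% ± 2.42 against 80.0% ± 4.44.

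On the pro-survival side, BCL2L1 took 49.4%, 26.8% and 26.0% of the family sum in the NC libraries and 12.02%, 19.0% and 19.1% in the HFCF libraries. The shares of the groups did not overlap, although the FPKM did. MCL1 took 33.6%, 59.3% and 58.2% in the NC libraries and 62.3%, 55.3% and 56.3% in the HFCF libraries, which overlap. In the first NC pig BCL2L1 exceeded MCL1, and in the other 5 libraries MCL1 was the higher. The log2 ratio of MCL1 to BCL2L1 was -0.56, 1.14 and 1.16 in the NC libraries and 2.37, 1.54 and 1.56 in the HFCF libraries.

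BAD and BCL2L1 form a known pair of inhibitor and target. Of the 8 members they had the highest and the lowest difference, 1.67 and -0.43, so their ratio was bound to differ widely. This ratio was chosen after the values were seen. Its log2 value was -2.51, -1.96 and -1.97 in the NC libraries and 0.30, -0.13 and -0.30 in the HFCF libraries. In FPKM, BAD thus read well below BCL2L1 in each NC library and near it in each HFCF library. Levels of 2 genes compare only roughly, so the change of the ratio between the diets is the firmer reading. The mean difference was 2.10 (from -2.15 ± 0.31 to -0.04 ± 0.31, SD, n = 3 each), and it was 1.92 to 2.23 with each pig left out in turn. For the shared entries, the log2 ratio of DHDH and BAX to KDSR and BCL2 was 2.81 ± 0.45 in the NC group. It was 3.14 ± 0.35 in the HFCF group (SD, n = 3 each), with overlapping ranges.

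**Figure D3:**
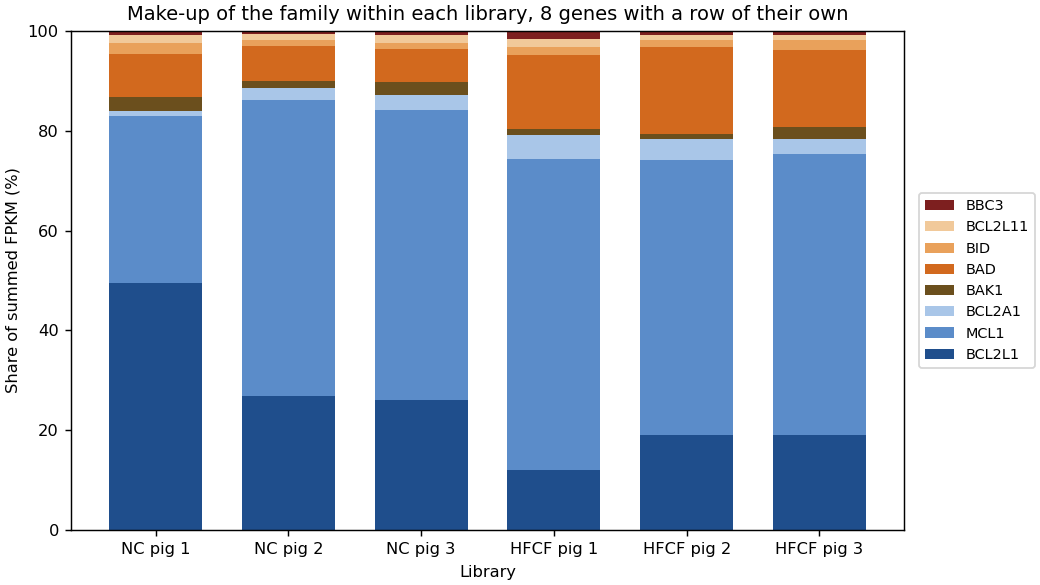
Share of the summed FPKM (%) taken by each of the 8 members in each library, stacked to 100%, with pro-survival genes in blue and pro-death genes in brown, orange and dark red. The BAD segment is 6.64% to 8.68% in the NC pigs and 14.8% to 17.4% in the HFCF pigs, and the BCL2L1 segment is smaller in the HFCF pigs.

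The wider apoptosis pathway was read from 7 lists holding 73 genes, of which 62 were tested. Of these, 13 rose and 8 fell, 33.9% in all, near the 28.9% of all tested genes (22.8% higher and 6.16% lower). Their median difference was 0.20, or -0.12 relative to the median of all genes. The counts of each list below are to be set beside these shares of all tested genes, and each list is short. The number called was 12 without the first or the second NC pig.

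Of the other genes with BCL2 homology, 4 rose and 1 fell of 9 tested. BMF, a BH3-only gene, measured 3.72, 3.91 and 4.72 FPKM in the NC pigs and 18.7, 8.31 and 9.46 FPKM in the HFCF pigs. It was highest in the first HFCF pig and did not overlap, with a difference of 1.45 and an adjusted p of 0.0156 (limma), which became 0.0621 without the first NC pig and 0.0506 without the second. BCL2L12 rose from 2.22 ± 0.42 to 5.22 ± 0.63 FPKM (SD, n = 3 each; difference 1.20, adjusted p = 0.00769, limma), a call held in 14 of 15 alternatives and lost with quantile normalization (difference 0.73, adjusted p = 0.0524). BCL2L14 was listed at 0 in 2 of the NC pigs and at 0.059 FPKM in the other, against 1.46, 0.43 and 0.89 FPKM in the HFCF pigs (adjusted p = 0.00609, limma), and its difference ran from 0.89 to 5.46 over the alternatives. BNIP3L, a mitophagy receptor, rose by 0.59 (adjusted p = 0.0490, limma), a call that held in 2 of 15 alternatives and in none of those that left out a pig. BCL2L13, also a mitophagy receptor and named here after its values were seen, fell by 0.54 (adjusted p = 0.0339, limma), from 8.76 ± 0.71 to 5.98 ± 0.18 FPKM (SD, n = 3 each). The BCL2L13 call was not followed through the alternatives.

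Downstream of the mitochondrion, 1 of 10 genes rose and 0 fell. CASP6, an executioner caspase, went from 2.43 ± 0.07 to 4.03 ± 0.50 FPKM (SD, n = 3 each; difference 0.70, adjusted p = 0.0299, limma), a call lost without any pig but the third HFCF one, with an adjusted p of up to 0.0826. The CASP6 difference was 0.35 with median-ratio scaling, 0.21 with quantile normalization and 0.46 after rescaling to TPM, with adjusted p-values of 0.186, 0.415 and 0.118 (limma). Its call was also lost with replicate number as a block (adjusted p = 0.0827, limma). CYCS, which encodes cytochrome c, had a difference of -0.26 (adjusted p = 0.344, limma) and overlapped. APAF1, the scaffold of the apoptosome, measured 0.46, 0.87 and 0.21 FPKM in the NC pigs and 2.61, 0.39 and 1.73 FPKM in the HFCF pigs, where the second pig lay among the NC values (adjusted p = 0.209, limma). CASP9, the initiator caspase of the apoptosome, had 4.94 ± 0.86 and 3.63 ± 0.17 FPKM (SD, n = 3 each), a difference of -0.42 with an adjusted p of 0.143 (limma) that fell to 0.0288 with median-ratio scaling. PARP1, a caspase substrate and with CYCS the most abundant gene of the list, had 14.7 ± 1.95 and 13.8 ± 1.11 FPKM (SD, n = 3 each).

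Inhibitors of apoptosis and their antagonists gave 3 higher and 0 lower of 6 tested. XIAP, which blocks caspases directly, measured 2.50, 3.45 and 3.75 FPKM in the NC pigs and 7.79, 6.29 and 5.72 FPKM in the HFCF pigs. It rose by 1.02 without overlap (adjusted p = 0.0163, limma). The adjusted p was 0.0509 with median-ratio scaling, 0.0632 with quantile normalization and 0.0583 with replicate number as a block (limma). HTRA2, a mitochondrial protease that counters XIAP once released, rose from 4.40 ± 0.66 to 9.53 ± 0.27 FPKM (SD, n = 3 each; difference 1.11, adjusted p = 0.00496, limma) and was called in 15 of 15 alternatives. BIRC6 rose by 0.87 (adjusted p = 0.0310, limma), a call that held in 5 of 15 alternatives and among the pigs left out only without the third NC pig. Thus a caspase inhibitor and an antagonist of it were both higher.

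In the death receptor pathway 0 of 10 genes were called (limma; 3 higher and 0 lower at an unadjusted p under 0.05). CASP8, the initiator caspase that cleaves BID, measured 0.78, 1.36 and 2.18 FPKM in the NC pigs and 5.69, 4.03 and 1.59 FPKM in the HFCF pigs. The third HFCF pig lay within the NC range, and the difference of 1.26 had an adjusted p of 0.116, which was 0.0349 without that pig (limma). TNFRSF1A, the TNF receptor and the most abundant gene of the list, had 61.5 ± 2.75 and 60.4 ± 8.48 FPKM, and the kinase RIPK1 had 7.73 ± 0.24 and 11.1 ± 3.09 FPKM (SD, n = 3 each).

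Partners of the family in the outer mitochondrial membrane were split, 2 higher and 2 lower of 8. VDAC2, the channel that binds BAK1, measured 59.4, 60.0 and 58.6 FPKM in the NC pigs and 33.1, 31.4 and 33.5 FPKM in the HFCF pigs. It fell by 0.86 (adjusted p = 0.00352, limma) with little spread in either group, and was called in 15 of 15 alternatives. VDAC3 fell by 0.50 (adjusted p = 0.0232, limma), from 37.2 ± 1.79 to 26.2 ± 1.18 FPKM (SD, n = 3 each). Its call was lost without any NC pig or the second HFCF pig, without the variance trend and with replicate number as a block. MFN1, a mitochondrial fusion protein, rose from 3.67 ± 0.82 to 8.09 ± 0.77 FPKM (SD, n = 3 each; adjusted p = 0.00936, limma) and was called in 15 of 15 alternatives. HK2, a hexokinase that docks on VDAC, measured 0.57, 1.14 and 0.97 FPKM in the NC pigs and 6.33, 4.57 and 1.48 FPKM in the HFCF pigs (difference 1.91, adjusted p = 0.0372, limma), and without any pig but the third HFCF one its adjusted p was 0.0682 to 0.124. The HK2 call was also lost with no filter, with each of the 3 scalings and with replicate number as a block, with an adjusted p of 0.0577 to 0.104 (limma).

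**Figure D4:**
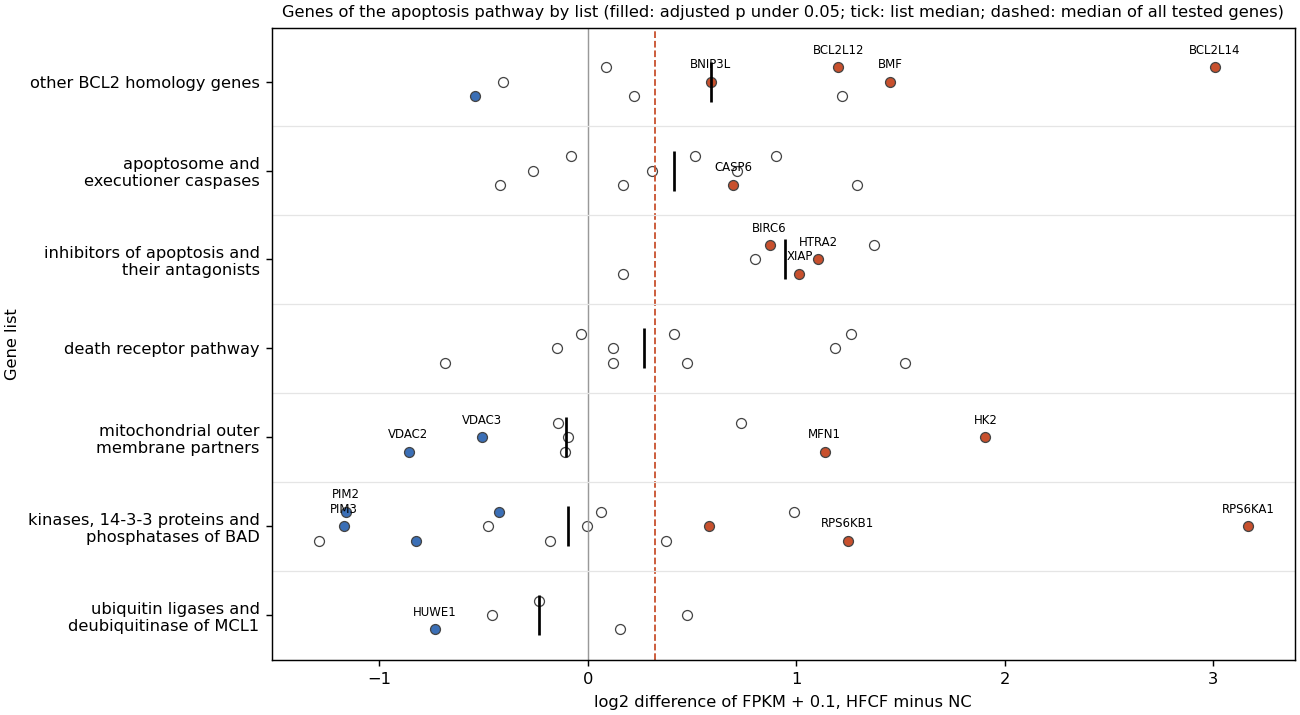
Difference in log2(FPKM + 0.1), HFCF minus NC, of each of the 62 tested genes in the 7 pathway lists (1 list per line), filled red where called higher and blue where called lower, with a black tick at the list median and a dashed line at the median of all tested genes. The death receptor list has no filled point, and the regulators of BAD have filled points on both sides of 0.

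Regulators of BAD, the kinases, 14-3-3 proteins and phosphatases that set its phosphorylation, were called in both directions, 3 higher and 4 lower of 14. Among all tested genes 22.8% were called higher and 6.16% lower. RPS6KA1 (RSK1), a BAD kinase, measured 1.10, 1.07 and 1.53 FPKM in the NC pigs and 21.0, 8.59 and 8.96 FPKM in the HFCF pigs, a rise of 3.17 (adjusted p = 0.00217, limma). RPS6KB1, another BAD kinase, rose from 2.60 ± 0.32 to 6.28 ± 0.45 FPKM (SD, n = 3 each; difference 1.25, adjusted p = 0.00427, limma). The BAD kinases PIM3 and PIM2 moved the other way. PIM3 fell by 1.17 (adjusted p = 0.00592, limma), from 13.7 ± 1.99 to 6.04 ± 0.93 FPKM, and PIM2 fell by 1.16 (adjusted p = 0.0316, limma), from 4.79 ± 1.23 to 2.11 ± 0.69 FPKM (SD, n = 3 each). RPS6KA1, RPS6KB1 and PIM3 were called in 15 of 15 alternatives. PIM2 was not called without the second or the third NC pig or the second or the third HFCF pig, with an adjusted p of 0.0745 to 0.0964 (limma). Nor was it called with no filter (adjusted p = 0.0508, limma) or with replicate number as a block (adjusted p = 0.0841, limma). The other called regulators are named after their values were seen. The kinase AKT2 fell from 32.6 ± 2.17 to 18.4 ± 2.15 FPKM (SD, n = 3 each; difference -0.82, adjusted p = 0.00778, limma). The 14-3-3 gene YWHAQ fell by 0.42 (adjusted p = 0.0457, limma), and the phosphatase gene PPP1CA rose by 0.58 (adjusted p = 0.0205, limma). The calls of AKT2, YWHAQ and PPP1CA were not followed gene by gene through the alternatives, and that of YWHAQ lay close to the threshold. AKT1 and YWHAE were matched to no entry. RNA levels give no measure of BAD phosphorylation.

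Among the genes that control the stability of MCL1 protein, 0 rose and 1 fell of 5. HUWE1, a ubiquitin ligase of MCL1, measured 20.5, 19.8 and 23.6 FPKM in the NC pigs and 14.2, 12.7 and 11.5 FPKM in the HFCF pigs. It fell by 0.73 without overlap (adjusted p = 0.0130, limma) and was called in 14 of 15 alternatives. GSK3B, a kinase that marks MCL1 for breakdown, had 4.69 ± 0.39 and 5.47 ± 1.92 FPKM (SD, n = 3 each), and its difference of 0.15 turned to -0.20 with median-ratio scaling, -0.27 with quantile normalization and -0.10 after rescaling to TPM.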

How the data were processed

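Total RNA of the abdominal aorta of 3 NC and 3 HFCF pigs was sequenced as paired-end reads. Per the methods, the authors used HISAT2 for alignment and StringTie for assembly, and deposited FPKM for 30477 genes, 13993 of them without a symbol. The submitters' processing notes also name cutadapt 1.9 and FastQC. Each FPKM is relative to the library it comes from. A value of 0.0001 FPKM was read as 0, which held for 39.9% to 43.9% of genes per library. The read total stated in the methods is not broken down by library, so the depth behind each value is unknown. Steps between low values gave relative depths of 1.02 to 1.37, with the first NC pig at 1, and precision was taken from the spread between pigs.

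Members were matched by gene name, then by full name in the description. BCL2 and BAX share entries with neighbours, so the planned ratio of BAX to BCL2 was replaced by BAD to BCL2L1, a pair chosen with the values known. Of the pathway genes, BCL2L2, BIK, HRK, BIRC3, TNFRSF10A, TNFSF10, DNM1L, AKT1 and YWHAE were matched to no entry and were not tested. BIRC2 may hold reads of BIRC3. No sequence or coordinate is given.

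The 15384 genes reaching a mean FPKM of 0.1 were fitted on the scale log2(FPKM + 0.1) by limma 3.58.1 in R 4.3.3 (a term for diet, a variance trend in eBayes), tested on simulated data first. Tried besides were a replicate block, each library left out, pseudocounts of 0.01 and 1, a fit with no filter or a mean of at least 1 FPKM, no variance trend, and scaling by TPM, quantiles or median ratios. Named were all members, CASP8, CASP9, APAF1, CYCS and XIAP, and in each list up to 4 called genes with the largest difference or, where fewer than 2 were called, also the 2 of highest mean. Some items are not reported here. The members and lists were chosen with earlier results of these data known.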

Additional observations from a re-analysis of the deposited data

How the results depend on the processing

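Depth is unknown and each group holds 3 pigs, and for each change below the cause was not tested. Of 4453 genes called (3505 higher, 948 lower, 78.7% higher), the replicate block gave 2772 (2232 and 540). Same-numbered pigs deviated from their group means with correlations across genes of -0.08 to 0.02, which gave no sign that the numbers pair the pigs. With 3 pigs per group this cannot exclude a pairing. Leaving out a pig gave 2421 to 3596 (1979 to 2815 higher, 442 to 786 lower). Calls were 2032 higher and 1968 lower (50.8% higher) with median-ratio scaling, 1748 and 1782 (49.5%) with quantile normalization, and 2229 and 1527 (59.3%) after rescaling to TPM, where the median of all genes was -0.0031, -0.07 and 0.09. Of the members, 1 was called (against 3) with no filter, each of these scalings and the block, and 1 to 3 with a pig left out. Of the pathway genes, 10 were called with the block (against 21) and 12 to 17 with a pig left out.

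BCL2A1 was not called with a pseudocount of 0.01 (1.57), no filter, no trend or the block (1.53 each), median-ratio scaling (1.18), quantile normalization (1.13) or TPM (1.30), and lay at 0.95 to 1.84 with a pig left out. BBC3 was not called with no filter or the block (1.07 each), median-ratio scaling (0.73), quantile normalization (0.44) or TPM (0.86), and lay at 0.85 to 1.20 with a pig left out. Signs turned for BAK1 (0.010 with a pseudocount of 1; -0.39 to 0.20 with a pig left out), BCL2L11 (-0.078 with median-ratio scaling, -0.31 with quantile normalization), the DHDH and BAX entry (-0.19 and, after TPM, -0.094) and GSK3B (-0.20, -0.27 and -0.10 with the scalings; -0.048 to 0.48 with a pig left out). With a pig left out they turned for PARP1 (-0.18 to 0.015) and TNFRSF1A (-0.15 to 0.034). BAD kept its call throughout. The pro-death share differed by 7.98 percentage points, and by 2.11 with the shared entries counted, an alternative chosen after seeing the data. The alternatives of the BAX to BCL2 ratio were not run, since neither gene has its own entry.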
